A study of Mus musculus with 10 samples.

Results

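Ribosome footprints and input RNA were compared between tumour-associated macrophages (TAMs) labelled Wdr4 cKO and Wdr4 ff, using 4 of the 10 mouse libraries of the series. The members are every library of the TAM table: 1 input RNA and 1 footprint library for each genotype. The cells were sorted for the surface protein F4/80 from liver tumours that grew after Hepa1-6 hepatoma cells were placed in the liver of mice carrying floxed Wdr4 (ff) or lacking Wdr4 in myeloid cells (cKO). The Cre driver, the age and sex of the mice and whether animals were pooled were not found in the labels, so n = 1 for every value below and no difference has a replicate check or a p-value. The other 6 libraries are of iBMDM, macrophages grown from bone marrow and immortalized, labelled WT or with either of 2 guide RNAs against Wdr4, sgWdr4-1 and sgWdr4-2. Values are TPM, a transcript's abundance scaled for its length and for the library's total. Of 21934 gene symbols, the 7101 with a mean of at least 5 TPM in the TAM input and in the TAM footprints were compared. All differences are cKO minus ff on the log2(TPM + 1) scale, on which low genes show less than their full change. Translation efficiency is the footprint value minus the input value on that scale.

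Wdr4 forms a complex with the methyltransferase Mettl1 that places 7-methylguanosine on a subset of tRNAs, a mark that keeps those tRNAs stable during decoding. Ribosome profiling sequences the mRNA stretches that translating ribosomes shield from nuclease, and input RNA from the same cells measures how much of each mRNA there is. When tRNA supply or amino acids are short, cells can phosphorylate the initiation factor eIF2, which lowers general translation and favours Atf4. Atf4 in turn activates genes of amino acid supply and stress recovery.

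Wdr4 itself was at 39.8 TPM in ff input and 20.9 TPM in cKO input, while its footprints were at 8.51 TPM in ff and 17.7 TPM in cKO. Its input was therefore lower (-0.90) and its footprints higher (0.98) in the libraries labelled cKO, so the footprint pair goes against the labels in this gene. This was not particular to the TAM libraries. In iBMDM, Wdr4 footprints were also higher than in WT under sgWdr4-1 (0.82) and sgWdr4-2 (0.96), with input differences of -0.50 and -0.002. Mettl1, the catalytic partner, was at 57.1 and 53.4 TPM in input and at 69.8 and 48.4 TPM in footprints. Gene-level TPM does not resolve which exons the reads covered. Below, ff and cKO stand for the libraries labelled so, and every direction is one between those libraries.

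The cell type on the labels was not visible in the markers. Of 24 macrophage markers, 21 were under 1 TPM in both TAM inputs, and Adgre1 (the F4/80 gene), Cd163, C1qa, Aif1 and Marco were listed at 0 in all 4 libraries. The macrophage markers summed to 24.2 TPM in ff input and 19.8 TPM in cKO input, most of it Cd14. Of 16 fibroblast and stellate cell markers, 8 reached 5 TPM in both inputs, and the list summed to 5615 and 8127 TPM in input and to 5559 and 3850 TPM in footprints, with Acta2 (smooth muscle actin) and Fn1 (fibronectin) the most abundant in input. Thy1, Lrat, Lum and Reln were at or near 0. Of 15 hepatocyte and hepatoma markers in the table, 12 were under 1 TPM in both inputs, Alb, Ttr and Afp among them, and 2 reached 5 TPM in both. Those were the apolipoproteins Apoa2, at 90.2 and 139.5 TPM in input and 30.4 and 19.6 TPM in footprints, and Apoa1, at 7.76 and 26.5 TPM in input and 3.74 and 0.962 TPM in footprints. The list summed to 99.3 and 168.6 TPM in input and to 35.9 and 21.7 TPM in footprints. Each TAM library also correlated more closely with an iBMDM library than with the other TAM library of its kind. Over the 7101 genes the ff input level correlated at r = 0.994 with the iBMDM WT input, the cKO input at 0.989 with the sgWdr4-1 input, and the TAM inputs with each other at 0.980. For footprints these values were 0.964 (ff with iBMDM WT), 0.970 (cKO with sgWdr4-2) and 0.950 (ff with cKO). The part of cell type makeup in the differences below was not tested.

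Footprint and input differences were inversely related across genes, but weakly. Of the 7101 genes compared, 6262 lay within 2-fold in both. In input, 101 genes (1.42% of those compared) were at least 2-fold higher in cKO and 12 (0.169%) at least 2-fold lower. In footprints, 194 genes (2.73%) were higher and 579 (8.15%) lower, and for translation efficiency 286 (4.03%) were higher and 1135 (16.0%) lower. The median gene was at 0.06 for input, -0.20 for footprints and -0.25 for translation efficiency. The spread across genes, as a robust SD, was 0.30, 0.54 and 0.69 for the 3 quantities in that order. Across genes the input and footprint differences correlated at r = -0.275 (Spearman's rho = -0.272), a description over genes that come from the same 4 libraries. Scaling to the same median within each kind of library set the footprint counts at 359 higher and 334 lower and the translation efficiency counts at 593 and 653. It moved the median footprint difference to 0.01 and left the correlation at -0.277. Of all genes compared, 41.2% were below 0 in input and 63.9% in footprints, and the counts and medians of lists below are read against these shares and the all-gene medians.

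**Figure D1:**
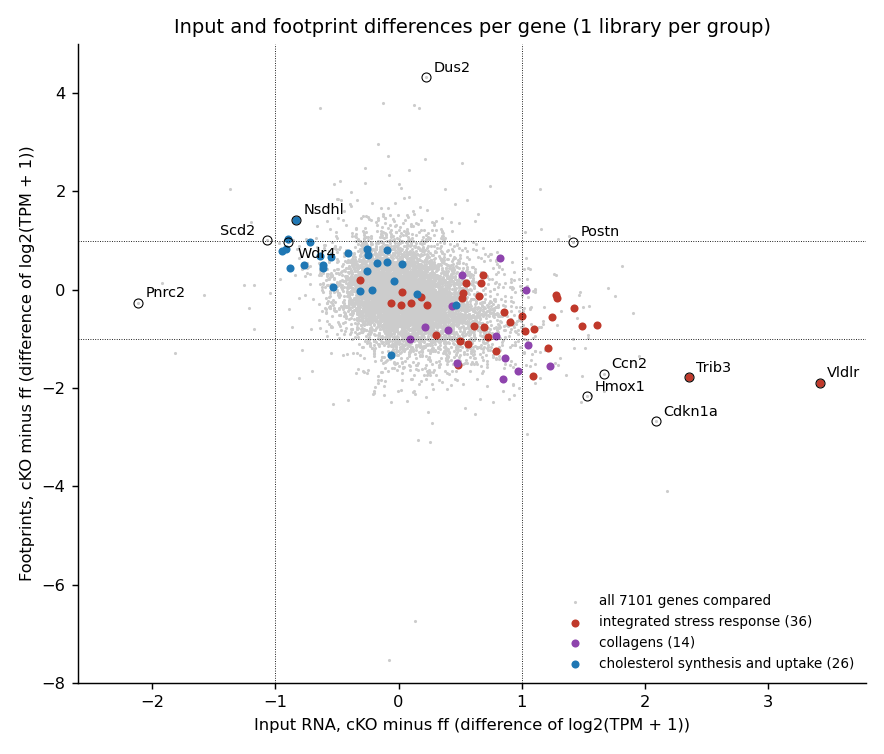
Input difference (x axis) against footprint difference (y axis), both cKO minus ff on the log2(TPM + 1) scale, for the 7101 genes compared. Coloured points are 3 gene lists, circled points are named genes and dotted lines mark 2-fold. Stress response and collagen genes lie mostly to the right and below 0, cholesterol genes to the left and above 0.

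This inverse relation was graded. Genes at least 2-fold higher in cKO input had a median footprint difference of -0.73, and 83.2% of them were below 0. The footprint median was -0.16 for the 4408 genes within 1.2-fold in input and 0.22 for the 163 genes in the lowest input class. Of the 101 genes with higher input, 38 (37.6%) were at least 2-fold lower in footprints, 58 were within 2-fold and 5 were higher. Those 5, all named because they are few, were the chemokine Ccl5, Nkiras1, Rusc1, Trp53inp2 and Zbtb20. Of the 12 genes lower in input, Aqp1, Dlk2 and Scd2 were at least 2-fold higher in footprints, 8 were within 2-fold and Gm11007 was lower. The share of genes past 2-fold in footprints was largest among low genes. In the lowest quartile of footprint TPM, 13.6% were lower and 3.66% higher, against 2.82% and 1.52% in the highest quartile.

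**Figure D2:**
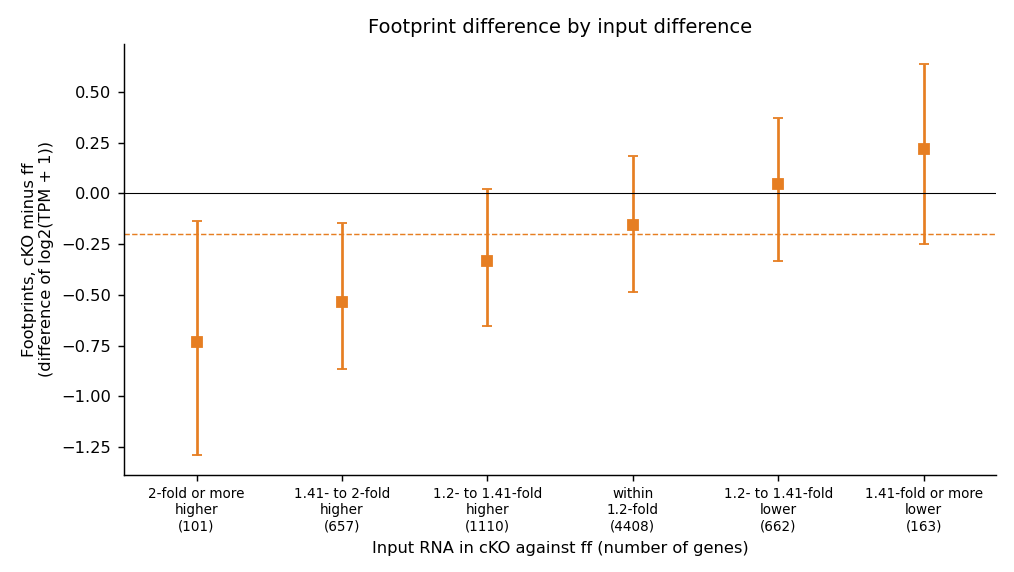
Median footprint difference (squares) and its 25th to 75th percentile over genes (bars) for 6 classes of input difference, in log2(TPM + 1) units, with the number of genes in each class. The dashed line is the median of all genes. The medians go from -0.73 where input was at least 2-fold higher in cKO to 0.22 where it was lowest.

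The integrated stress response list held more genes at least 2-fold higher in cKO input than any of the other 49 lists. Of 43 listed genes 36 were compared, and 13 of them were at least 2-fold higher in cKO input (median 0.69, all genes 0.06) and 0 lower. In footprints 0 of the 36 were higher and 8 lower (median -0.54, all genes -0.20). For translation efficiency 23 were lower and 0 higher (median -1.45, all genes -0.25). Promoter windows of 5 members are shown because they hold an element of the kind bound by C/EBP-Atf4 pairs, TGATGNAA, on one strand or the other. The windows come from RefSeq promoters of GRCm38.p6, are read 5′ to 3′ on the gene's strand, and carry the element in capitals.
Vldlr: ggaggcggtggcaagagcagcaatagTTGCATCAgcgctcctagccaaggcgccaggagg
Atf3: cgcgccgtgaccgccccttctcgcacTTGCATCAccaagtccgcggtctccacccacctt
Chac1: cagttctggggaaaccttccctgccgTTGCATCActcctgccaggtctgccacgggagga
Nupr1: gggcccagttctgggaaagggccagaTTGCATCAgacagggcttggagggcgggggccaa
Pck2: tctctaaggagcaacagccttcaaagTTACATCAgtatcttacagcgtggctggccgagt
They lie at chr19:27216794-27216853 (plus strand, Vldlr), chr1:191183410-191183469 (minus strand, Atf3), chr2:119351023-119351082 (plus strand, Chac1), chr7:126625547-126625606 (minus strand, Nupr1) and chr14:55540137-55540196 (plus strand, Pck2). The element was found in 9 of 39 promoters of the list (23.1%), which cover 30 of its 36 compared genes. It was found in 3.97% of all 32851 promoters of the same length and in 1.99% of those of the compared genes. In the windows of Vldlr, Atf3, Chac1 and Nupr1 the capitals read TTGCATCA. This is the same element on the other strand with C at its open position, not a second match. That form was in 0.895% of all promoters. A match is a description of these letters only.

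Among the regulators, Atf4, the central transcription factor, was at 676 and 724 TPM in ff and cKO input and at 516 and 429 TPM in footprints, differences of 0.10 and -0.27. Ddit3 (CHOP), which acts downstream of Atf4, was at 84.4 and 119 TPM in input and at 69.0 and 23.3 TPM in footprints, so it lay higher in one kind of library (0.48) and over 2-fold lower in the other (-1.53). Trib3, a pseudokinase that restrains Akt and Atf4, was at 7.13 and 40.6 TPM in input and at 17.9 and 4.49 TPM in footprints (2.36 and -1.79). Ppp1r15a (GADD34), which directs removal of the phosphate from eIF2, was at 48.3 and 104.0 TPM in input and at 32.8 and 8.99 TPM in footprints (1.09 and -1.76). In each of these 4 genes the cKO library was the higher of the pair in input and the lower in footprints. Cebpg, a C/EBP partner of Atf4, did not share this: its input was 21.5 and 35.4 TPM and its footprints 35.9 and 44.5 TPM (0.69 and 0.30).

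The amino acid genes named from this list were not uniform in footprints. Asns, asparagine synthetase, was at 238 and 365 TPM in input and at 88.4 and 52.5 TPM in footprints (0.61 and -0.74). Slc3a2, the heavy chain of several amino acid exchangers, was at 270.2 and 449 TPM in input and at 1562 and 806 TPM in footprints (0.73 and -0.95). Its light chain Slc7a5 was at 179 and 261 TPM in input, with nearly level footprints of 209 and 231 TPM (0.54 and 0.14). Gpt2, an alanine transaminase, had input of 10.05 and 32.7 TPM and footprints of 8.90 and 5.02 TPM (1.61 and -0.72). Slc38a2, a transporter of neutral amino acids, was the list's clearest exception, with input of 204 and 164 TPM and footprints of 177 and 203 TPM (-0.32 and 0.20).

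Vldlr, a lipoprotein receptor that Atf4 can induce, had the highest input difference of the genes ranked (3.42), from 1.83 to 29.3 TPM. Its ff input alone lay under the 5 TPM minimum, which Vldlr passed through its cKO value. Its footprints were at 24.7 TPM in ff and 5.90 TPM in cKO (-1.89). The cytosolic aminoacyl-tRNA synthetases, some of them Atf4 targets, showed no member past 2-fold in input among 23 compared (median 0.12, all genes 0.06). In footprints 1 of the 23 was lower, Mars1, with 130 TPM in ff and 61.0 TPM in cKO (-1.08), and the list median was -0.47 (all genes -0.20).

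Genes of protein folding in the endoplasmic reticulum behaved alike within a narrow range. Of 34 compared (37 listed), 33 were above 0 in input (median 0.39, all genes 0.06) and 34 of 34 below 0 in footprints (median -0.43, all genes -0.20), with 0 past 2-fold in input and 2 lower in footprints. Hspa5 (BiP), the main chaperone of this compartment, was at 599 and 1057 TPM in input and at 1495 and 909 TPM in footprints (0.82 and -0.72). Xbp1, a transcription factor of the unfolded protein response, was at 49.4 and 97.5 TPM in input and at 175 and 98.1 TPM in footprints (0.97 and -0.83). Cytosolic heat shock proteins differed in input from that pattern: 14 of 21 were below 0 there (median -0.16), and 4 were over 2-fold lower in footprints (median -0.44).

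**Figure D3:**
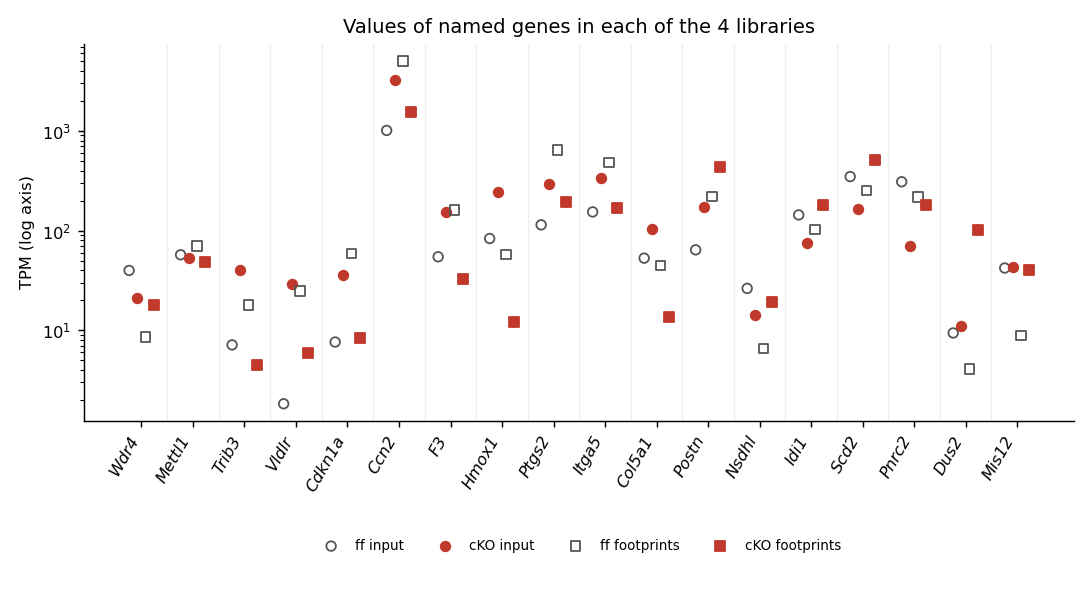
TPM of 18 genes in each of the 4 libraries, on a log axis. Circles are input and squares footprints, open symbols ff and filled symbols cKO. From Trib3 to Col5a1 the filled circle lies above the open one and the filled square below the open one, and for Wdr4, Nsdhl, Idi1 and Scd2 the order is turned round in both kinds of library.

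Immediate-early genes were higher in cKO input and mostly lower in cKO footprints. Of 17 immediate-early AP-1 and EGR genes compared, 17 were above 0 in input, 2 of them at least 2-fold (median 0.56, all genes 0.06), and 6 were at least 2-fold lower in footprints with 0 higher (median -0.83, all genes -0.20). Egr1, an immediate-early transcription factor, was at 19.96 and 43.4 TPM in input and at 25.9 and 9.94 TPM in footprints (1.08 and -1.30). Junb, an AP-1 subunit, was at 62.4 and 94.98 TPM in input and at 43.7 and 15.1 TPM in footprints (0.60 and -1.48). Jund, another AP-1 subunit, was higher in both, with input of 44.3 and 78.1 TPM and footprints of 7.66 and 13.7 TPM (0.80 and 0.76). Of 10 MAPK feedback regulators compared, 1 was at least 2-fold higher in input and 3 lower in footprints (medians 0.55 and -0.52). With a minimum of 20 TPM that footprint median became -1.29. That 1 gene, Errfi1, an inhibitor of the EGF receptor, was at 141 and 287 TPM in input and at 35.1 and 13.8 TPM in footprints. The list of growth factor receptors was near level in footprints. Of 26 compared, 20 were above 0 in input, 1 of them at least 2-fold higher. In footprints 12 were above 0, with 0 at least 2-fold higher and 1 lower. In both kinds of library that 1 gene was Vldlr, a lipoprotein receptor that is also in the stress response list. The list medians were 0.23 in input and -0.01 in footprints, the latter 0.19 after rescaling to the same median.

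Of 26 listed YAP and TEAD responsive genes, 19 were compared. In input 4 were at least 2-fold higher and 0 lower (median 0.50, all genes 0.06), and in footprints 1 was higher and 7 lower (median -0.70, all genes -0.20). Windows of 3 members are shown for their TEAD motif CATTCC, in capitals on either strand.
Ccn1: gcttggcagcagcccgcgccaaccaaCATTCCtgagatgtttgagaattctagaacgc
Ankrd1: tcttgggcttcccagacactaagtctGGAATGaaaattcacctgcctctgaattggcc
Amotl2: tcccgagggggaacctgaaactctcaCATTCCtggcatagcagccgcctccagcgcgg
These RefSeq windows of GRCm38.p6 lie at chr3:145650057-145650114 (minus strand, Ccn1), chr19:36119936-36119993 (minus strand, Ankrd1) and chr9:102717713-102717770 (plus strand, Amotl2). CATTCC was in 10 of 16 promoters of the list (62.5%), which cover 14 of its 19 compared genes. It was in 14.7% of all promoters and in 11.7% of those of the compared genes. The genes with it were Ajuba, Amotl2, Ankrd1, Axl, Ccn1, Crim1, Lats2, Wwtr1 and Yap1. Ccn2, F3, Gadd45a and Thbs1, the 4 at least 2-fold higher in input, were not among them. F3 and Gadd45a were among the 14 genes with a promoter. Whether Ccn2 and Thbs1 were is not given here, so absence of the motif cannot be read for them. The list is one of TEAD responsive genes by choice, so this share is a description only.

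Ccn2 (CTGF), a secreted matricellular protein and a standard YAP readout, was at 1009.8 TPM in ff input and 3206 TPM in cKO input. Its footprints were at 5007 TPM in ff and 1530.5 TPM in cKO, which gives 1.67 for input and -1.71 for footprints. Ccn1 (CYR61), of the same family, was at 1067 and 1600.4 TPM in input and at 4401 and 2231 TPM in footprints (0.59 and -0.98). Ankrd1, a muscle ankyrin repeat protein, was at 531 and 841 TPM in input and at 386 and 154 TPM in footprints (0.66 and -1.32). The effectors themselves lay closer together: Yap1 input was 99.0 and 95.5 TPM and its footprints 36.7 and 31.5 TPM. Lats2, a kinase that inhibits YAP, had input of 52.8 and 57.8 TPM and higher footprints in cKO, 3.36 against 11.6 TPM (1.53), from a low ff value.

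Matrix and adhesion genes included some of the most abundant transcripts with opposed differences. All 14 collagens compared (22 listed) were above 0 in input, 3 at least 2-fold (median 0.81, all genes 0.06), and 7 were at least 2-fold lower in footprints with 0 higher (median -0.97, all genes -0.20). Their input median was 0.44 with a minimum of 20 TPM and 0.49 with no minimum. Col6a3, a chain of microfibrillar collagen, was at 50.7 and 120.3 TPM in input and at 12.2 and 3.52 TPM in footprints (1.23 and -1.54). Col5a1, of fibril-regulating collagen, was at 52.9 and 105 TPM in input and at 44.5 and 13.5 TPM in footprints (0.97 and -1.65). Among the fibrillar chains, Col1a1 was at 425 and 575 TPM in input and at 1018 and 805 TPM in footprints, a smaller pair of differences (0.44 and -0.34). Col16a1 and Col6a1 had footprints above 0 (0.64 and 0.31) beside input above 0 (0.83 and 0.51).

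Of 27 integrin and focal adhesion genes compared, 25 were above 0 in input with 1 at least 2-fold higher (median 0.47, all genes 0.06), and 7 were at least 2-fold lower in footprints (median -0.67, all genes -0.20). Itga5, the fibronectin receptor chain, was that 1 gene, at 154 and 333 TPM in input and at 483 and 170 TPM in footprints (1.11 and -1.50). Ptk2 (focal adhesion kinase) differed from the list, with input of 93.4 and 85.7 TPM and footprints of 10.3 and 20.8 TPM (-0.12 and 0.95). Matrix glycoproteins had 3 of 24 at least 2-fold higher in input and 4 lower in footprints (medians 0.42 and -0.29, all genes 0.06 and -0.20). Rescaling to the same median put their footprint median at -0.08. Has2, which makes hyaluronan, was at 8.75 and 36.9 TPM in input and at 18.7 and 6.69 TPM in footprints (1.96 and -1.36). Postn (periostin), a fibroblast marker, was higher in cKO in both kinds of library, at 64.0 and 173 TPM in input and at 219 and 434 TPM in footprints (1.42 and 0.98). The sums of the fibroblast and stellate markers given above were likewise higher in cKO input and lower in cKO footprints, and their part in these values was not tested. In bulk libraries fewer cells of a type and less RNA per cell cannot be told apart.

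The list of plasminogen activation and matrix proteolysis had 5 of 21 compared genes at least 2-fold higher in input (median 0.52, all genes 0.06). In footprints 5 were lower (median -0.37, all genes -0.20). Plau, the urokinase protease, was at 17.9 and 52.1 TPM in input and at 129 and 37.3 TPM in footprints (1.49 and -1.76). F3, tissue factor, was at 54.6 and 154 TPM in input and at 162 and 32.4 TPM in footprints (1.479 and -2.28). Timp3, an inhibitor of metalloproteinases, was higher in cKO in both, at 76.1 and 184 TPM in input and at 154 and 193 TPM in footprints (1.26 and 0.32).

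Of the genes that restrain growth, Cdkn1a (p21) was at 7.62 and 35.7 TPM in input and at 58.9 and 8.36 TPM in footprints (2.09 and -2.68). Its translation efficiency difference of -4.77 was the lowest after Vldlr (-5.32) among ranked genes with no near-identical copy discussed below. Of 22 p53 genes compared, 4 were at least 2-fold higher in input and 7 lower in footprints (medians 0.33 and -0.45, all genes 0.06 and -0.20). One of those 7 was Mt1, a metal-binding metallothionein. Trp53 itself was at 212 and 175 TPM in input and at 91.1 and 71.4 TPM in footprints, below 0 in both (-0.27 and -0.35). Hmox1, heme oxygenase and a target of both NRF2 and stress signalling, was at 83.2 and 243 TPM in input and at 57.3 and 12.02 TPM in footprints (1.53 and -2.16). Sqstm1 (p62), an autophagy receptor, was at 299.7 and 666 TPM in input and at 376 and 107 TPM in footprints (1.15 and -1.80).

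Secreted and immune genes were split. Ptgs2 (COX-2), of prostaglandin synthesis, was at 114 and 294 TPM in input and at 644 and 192 TPM in footprints (1.36 and -1.74). Cxcl1, a neutrophil chemokine, was at 13.2 and 25.6 TPM in input and at 30.0 and 5.63 TPM in footprints (0.90 and -2.23). Ccl5, a T cell chemokine, was instead higher in both, at 4.89 and 14.4 TPM in input and at 5.04 and 11.8 TPM in footprints (1.39 and 1.08). Of the 38 listed secreted genes 11 were compared, with 2 at least 2-fold higher in input, and 1 higher and 2 lower in footprints. Among 16 interferon genes compared, Isg15 and Bst2 were the 2 at least 2-fold higher in input. Bst2 (tetherin) was at 15.4 and 60.7 TPM in input and at 93.3 and 66.6 TPM in footprints (1.91 and -0.48), and Isg15 footprints were 12.7 and 11.4 TPM. H2-K1, a class I MHC heavy chain, was at 26.9 and 74.9 TPM in input and at 173 and 116 TPM in footprints (1.45 and -0.57), and 8 of 8 class I genes compared were below 0 in footprints, where 63.9% of all genes were.

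Glycolysis and hypoxia genes were higher in cKO input more than in the median gene, and few passed 2-fold in footprints. Of 18 glycolysis genes compared, 2 were at least 2-fold higher in input and 2 lower in footprints (medians 0.29 and -0.59, all genes 0.06 and -0.20). Slc16a3, a lactate exporter, was at 18.4 and 46.3 TPM in input and at 58.3 and 35.0 TPM in footprints (1.29 and -0.72). Its relative Slc16a1 went the other way, with input of 103 and 72.5 TPM and footprints of 204 and 257 TPM (-0.50 and 0.33). Of 17 hypoxia-responsive genes, 3 had input at least 2-fold higher in cKO (median 0.61), and 1 was higher and 2 lower in footprints (median -0.28, all genes -0.20). The lower footprint counts were 11.1% of the glycolysis and 11.8% of the hypoxia genes, near the 8.15% of all genes, and rescaling put the hypoxia median at -0.08. Ndrg1, induced by low oxygen, was at 31.1 and 92.3 TPM in input and at 52.5 and 26.03 TPM in footprints (1.54 and -0.99), while Bnip3, a mitophagy receptor, had near-level footprints of 289 and 267 TPM beside input of 59.6 and 167 TPM.

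Cholesterol synthesis was the main group with the opposite order. Sterols are made from acetyl-CoA through mevalonate and squalene, and the enzymes are switched on together by Srebf2 when sterols run low. Of 30 listed genes 26 were compared, and 23 of them were below 0 in input, none by 2-fold (median -0.36, all genes 0.06). In footprints 21 were above 0, 2 at least 2-fold higher and 1 lower (median 0.53, all genes -0.20), and for translation efficiency 13 were higher and 1 lower (median 1.00). Windows of 3 promoters are shown for the CCAAT box, bound by NF-Y, which acts with Srebf proteins at such genes.
Nsdhl: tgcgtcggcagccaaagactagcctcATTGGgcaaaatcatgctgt
Idi1: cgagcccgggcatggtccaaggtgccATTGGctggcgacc
Cyp51: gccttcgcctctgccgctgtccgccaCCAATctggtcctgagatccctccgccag
These RefSeq windows of GRCm38.p6 lie at chrX:72918475-72918520 (plus strand, Nsdhl), chr13:8885566-8885605 (plus strand, Idi1) and chr5:4104698-4104752 (minus strand, Cyp51), with the box in capitals on either strand. CCAAT was in 18 of 27 promoters of the list (66.7%), covering 19 of its 26 compared genes, against 37.4% of all promoters and 38.3% of those of the compared genes. It was also in 57.1% of 14 immediate-early promoters and in 46.2% of both the 39 stress response and the 13 collagen promoters, lists with the opposite order. The sterol element core TCACNCCA was in 3 of the 27 (11.1%) and in 4.36% of all promoters.

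Along the pathway, Acat2, which makes the acetoacetyl-CoA it starts from, was at 86.8 and 52.3 TPM in input and at 41.3 and 81.4 TPM in footprints (-0.72 and 0.96). Mvd, mevalonate diphosphate decarboxylase, was at 21.9 and 10.9 TPM in input and at 13.7 and 24.3 TPM in footprints (-0.94 and 0.78). Idi1, an isomerase of the next step, was at 143 and 75.6 TPM in input and at 102 and 182 TPM in footprints (-0.92 and 0.83).

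After squalene, Cyp51, a demethylase of lanosterol, was at 145 and 77.8 TPM in input and at 188 and 387 TPM in footprints (-0.89 and 1.04). Nsdhl, which removes further groups from the sterol ring, was at 26.3 and 14.3 TPM in input and at 6.54 and 19.2 TPM in footprints (-0.83 and 1.42). Both genes were lower in cKO input and over 2-fold higher in cKO footprints. Insig2, which retains the Srebf escort protein in the endoplasmic reticulum, was the 1 gene over 2-fold lower in footprints, at 49.0 and 18.8 TPM (-1.33), with input of 24.3 and 23.3 TPM. Its paralogue Insig1 was at 66.2 and 42.3 TPM in input and at 116 and 186 TPM in footprints (-0.63 and 0.69).

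Fatty acid desaturation joined the sterol genes in part. Scd2, a stearoyl-CoA desaturase, was at 348 and 165 TPM in input and at 253 and 510 TPM in footprints (-1.07 and 1.01). Elovl6, a fatty acid elongase, was at 22.5 and 10.99 TPM in input and at 45.5 and 89.2 TPM in footprints (-0.97 and 0.96). Fasn and Acly, which make palmitate and its precursor, differed little in footprints (-0.03 and -0.11). Polyamine genes had input below 0 in 8 of 12 and footprints above 0 in 10 of 12 (medians -0.23 and 0.47). Amd1, S-adenosylmethionine decarboxylase, was the 1 past 2-fold, with footprints of 18.97 and 43.4 TPM beside input of 263 and 202 TPM.

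Ribosomal protein genes were lower in cKO input and higher in cKO footprints, nearly all by less than 2-fold. Of 47 large and 30 small ribosomal subunit protein genes compared, 46 and 29 were below 0 in input (medians -0.27 and -0.24, all genes 0.06). In footprints 36 and 26 of them were above 0, 3 and 2 at least 2-fold (medians 0.22 and 0.20, all genes -0.20). Rps12, a small subunit protein, was at 4224 and 3859 TPM in input and at 1841 and 5204 TPM in footprints (1.499). Rplp1, of the stalk that recruits elongation factors, was at 3140 and 3016 TPM in input and at 1012 and 2364 TPM in footprints (1.22). Rpl3 and Rpl4, large core proteins, lay below 0 in footprints (-0.81 and -0.46). Rpl22l1 and Rps7 passed 2-fold from ff footprints of 0 and 5.01 TPM beside input over 100 TPM, and how reads shared with copies were placed is not stated in the sources. Ribosome biogenesis factors were below 0 in 52 of 54 in input (median -0.36). In footprints 38 of 54 were (70.4%, median -0.29), near the 63.9% of all genes.

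Of 68 listed tRNA modification enzymes 46 were compared, and 42 were below 0 in input (median -0.20), none past 2-fold. In footprints 1 was at least 2-fold higher (2.17%, all genes 2.73%) and 5 lower (10.9%, all genes 8.15%), with a median of -0.27 (all genes -0.20). Dus2, a dihydrouridine synthase, was at 9.39 and 11.1 TPM in input and at 4.07 and 100.2 TPM in footprints (4.32), the highest footprint difference of the genes ranked. Its ff footprints alone lay under the 5 TPM minimum, which Dus2 passed through its cKO value. Alkbh1, a tRNA demethylase, was at 23.8 and 21.2 TPM in input and at 41.3 and 10.9 TPM in footprints (-1.84). Qtrt2, of queuosine synthesis, was at 66.0 and 54.6 TPM in input and at 46.9 and 22.4 TPM in footprints (-1.04). Nsun2, which methylates cytosine in tRNA, was near level in footprints, at 38.3 and 42.3 TPM.

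Mitochondrially encoded genes took 6.56% of ff and 6.13% of cKO input TPM, and 9.94% and 13.6% of footprint TPM. Of the 13 genes 11 were above 0 in footprints (median 0.40), none past 2-fold. The Atp6 subunit mt-Atp6 was at 7217 and 6232 TPM in input and at 13155 and 24933 TPM in footprints (0.92). Since TPM in a library sum to a fixed total, a larger share for these genes lowers the others. With them, ribosomal protein and histone genes left out of the total, 7664 genes passed the minimum and the footprint counts were 307 higher and 549 lower. Over the 7007 of the main genes that were left, they were 274 and 456.

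**Figure D4:**
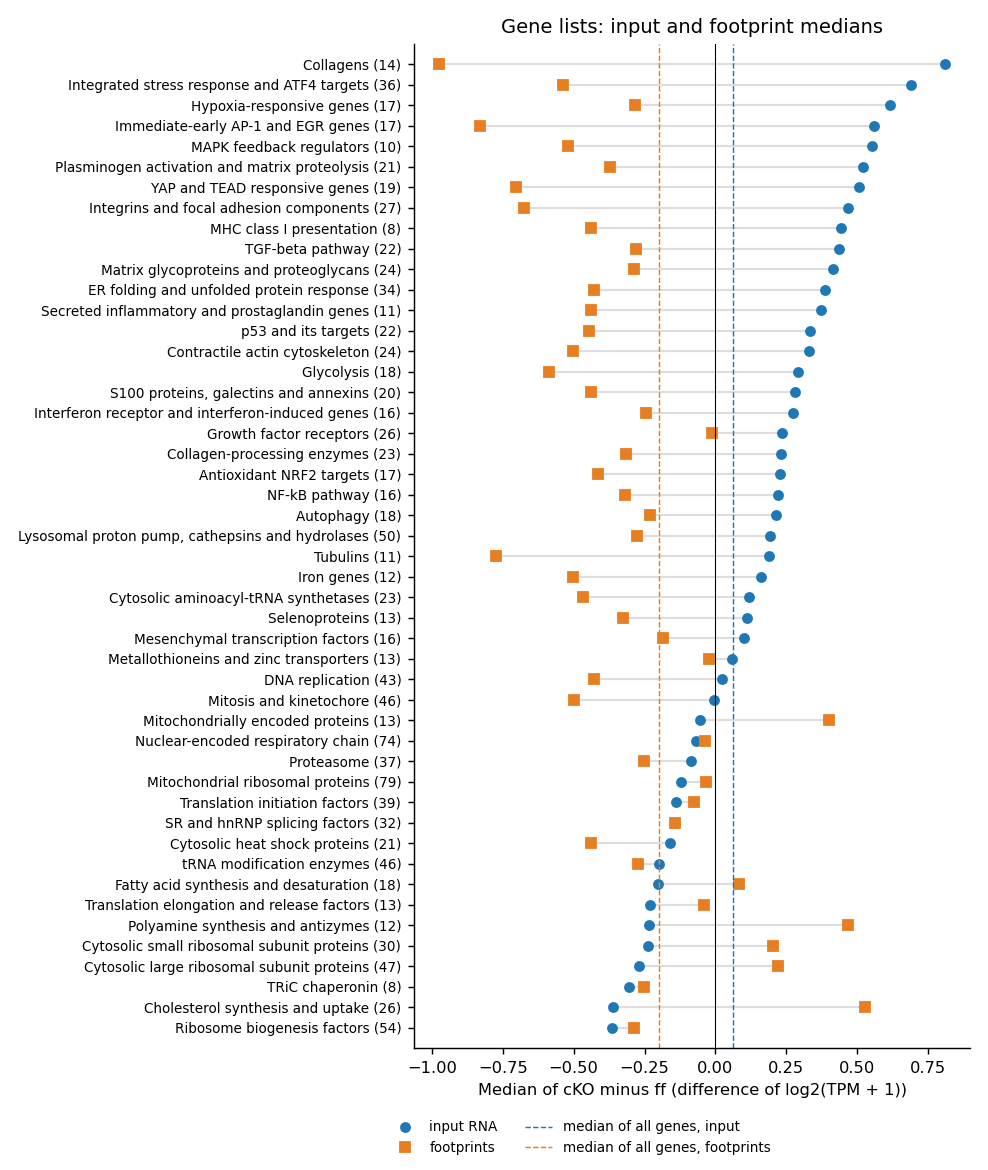
Median input (circles) and footprint (squares) difference of 48 gene lists with at least 8 compared members, in log2(TPM + 1) units, ordered by the input median, with the number of genes in brackets and the medians of all genes as dashed lines. In the upper part the squares lie left of 0 and the circles right, and for cholesterol, polyamine and ribosomal protein genes the order is turned round.

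Over the 50 lists, 31 had an input median above 0 with a footprint median below 0, 6 had the reverse, 13 were below 0 in both and 0 were above 0 in both. After rescaling to the same median these counts were 27, 12, 9 and 2. Many of these lists share genes, and their medians come from the same 4 libraries. Rescaling to the same median turned the sign of the footprint median in 8 lists, of the input median in 2 and of the translation efficiency median in 8. Among the 8 footprint medians were those of initiation factors (-0.07 to 0.14), mitochondrial ribosomal proteins (-0.03 to 0.18) and the nuclear-encoded respiratory chain (-0.04 to 0.18). It did not turn those of stress response, collagen, YAP-responsive, cholesterol or ribosomal protein genes, which became -0.34, -0.77, -0.49, 0.73, 0.44 (large subunit) and 0.42 (small subunit).

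Mitosis and DNA replication genes lay near level in input and low in footprints. Of 43 DNA replication genes compared, 0 passed 2-fold in input (median 0.02, or -0.06 after rescaling to the same median). In footprints 1 of the 43 was higher and 7 lower (16.3%, all genes 8.15%), with a median of -0.43. Of 46 mitosis genes compared, 0 passed 2-fold in input (median -0.00, all genes 0.06), and 1 was higher and 6 lower in footprints (median -0.50, all genes -0.20). Kif2c, a microtubule-depolymerizing kinesin, was at 71.6 and 65.9 TPM in input and at 31.6 and 6.41 TPM in footprints (-2.13). Plk1, a mitotic kinase, was at 117 and 113 TPM in input and at 27.6 and 12.9 TPM in footprints (-1.04). Mis12, of the kinetochore, was the 1 higher gene, at 42.1 and 42.7 TPM in input and at 8.88 and 40.5 TPM in footprints (2.07). Of 11 tubulin genes compared, 11 were below 0 in footprints (median -0.77, all genes -0.20), with 2 at least 2-fold lower.

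Genes whose input lay within 1.2-fold gave the footprint differences least tied to input. The highest after Dus2 were Ctxn1, a cortexin, with footprints of 4.15 and 39.5 TPM (2.97), and Zdhhc3, a palmitoyltransferase, with 11.1 and 53.3 TPM (2.16). Ctxn1, like Dus2, passed the 5 TPM minimum in footprints through its cKO value. Mrps17, a mitochondrial ribosomal protein, had the highest level among them, 301 and 967 TPM (1.68). Among the lowest were Sucla2, a subunit of succinyl-CoA synthetase, with footprints of 77.7 and 15.2 TPM (-2.28), and Itgb7, an integrin chain of leukocytes, with 184 and 37.6 TPM (-2.26). Sap18b and Rnaset2b had the lowest values of all and are uncertain, because each has a near-identical copy. Sap18b footprints were 184 TPM in ff and 0 in cKO while Sap18 had 1254 and 1915 TPM, and the 2 genes summed gave 0.41. Rnaset2b footprints were 108 and 0.022 TPM while Rnaset2a had 55.2 and 107 TPM, and the sum gave -0.61. Kpna2 footprints were 80.0 and 15.2 TPM and those of its copy Kpna2rt 11.4 and 68.3 TPM, with a sum at -0.13.

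The genes lowest in cKO input differed mostly in input alone. Pnrc2, of mRNA decay, was at 309 and 70.6 TPM in input and at 217 and 180.2 TPM in footprints (-2.11 and -0.27). Rabl2, a small GTPase of cilia, was at 59.4 and 15.0 TPM in input and at 37.4 and 41.3 TPM in footprints (-1.92 and 0.14). Ece1, an endothelin-converting enzyme, was at 69.5 and 28.6 TPM in input and at 45.8 and 48.8 TPM in footprints (-1.25 and 0.09). Msln (mesothelin) was the only one of the 7 ranked that was over 1.5-fold lower in both, at 37.2 and 15.95 TPM in input and at 68.8 and 39.0 TPM in footprints (-1.17 and -0.80).

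Exchanging the labels between the footprint libraries turns the sign of every footprint difference, and the correlation with input becomes 0.275. Translation efficiency then has 393 genes at least 2-fold higher and 290 lower. Of 38 lists with a median below 0 as labelled, 28 have one above 0 with the labels crossed. The stress response median becomes -0.21, cholesterol synthesis -0.11, collagens 0.36, and large and small subunit proteins -0.00 and 0.06. Under both assignments the levels correlated nearly alike. Across genes, ff footprints correlated at r = 0.754 with ff input and 0.765 with cKO input, and cKO footprints at 0.743 and 0.737. Each footprint library was thus slightly closer to the input labelled with the other genotype. Whether the footprint labels are right was not tested.

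The iBMDM libraries, normalised in a separate table, gave a different match for each kind of library. Over the 7101 genes the cKO input difference correlated at r = 0.620 with that of sgWdr4-1 against WT and at 0.007 with that of sgWdr4-2. The cKO footprint difference correlated at 0.431 with that of sgWdr4-2 and at -0.249 with that of sgWdr4-1. The 2 guide differences share the WT libraries, and the ff and cKO libraries are in neither. Trib3 input differed by 2.36 in cKO, 1.68 under sgWdr4-1 and -0.01 under sgWdr4-2, and its footprints by -1.79, 1.25 and -1.18. Nsdhl footprints differed by 1.42, 1.78 and 1.38 in that order, and Itga5 footprints by -1.50, -0.86 and -1.71. Pnrc2 input, lowest in cKO, was 64.3 TPM in iBMDM WT against 309 TPM in TAM ff, and differed by 0.08 and -0.03 under the guides.

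The lower limit for comparison fell between genes of like size. Phf3 and Cd34 were just inside it, with footprints of 5.48 and 4.53 TPM (Phf3) and input of 5.94 and 4.08 TPM (Cd34). Mbd1 and Taf3 were just outside, with footprints of 7.26 and 2.74 TPM (Mbd1) and 4.73 and 5.27 TPM (Taf3).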

How the data were processed

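The authors deposited 1 table of TPM for the 4 TAM libraries and 1 for the 6 iBMDM libraries, with values summing to about 1000000 per library. Per the submitters' processing notes, the tools included Bowtie2 and fastp 0.18.0. Per the labels' protocols, input RNA was captured as mRNA and footprints were RNase I-protected fragments depleted of rRNA. For the genome build, annotation, quantifier and treatment of reads that map to several genes: not given in the sources used here. Because TPM holds no library depth, depth is unknown and intervals for counting error were not computed. Of 21956 rows, 42 rows shared 20 symbols and of these the row highest on average was kept. Genes averaging 5 TPM or more in input and in footprints were compared as log2(TPM + 1) differences, counted at 1 or more on the log2 scale, with no test. A gene could pass this minimum, or that for ranking, through the library where it was high.

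The genes named were Wdr4, Mettl1, up to 8 highest and 8 lowest per quantity (7 passed for lowest input; mean of at least 10 TPM in both kinds), the ends of the footprint range among genes high or within 1.2-fold in input, and at most 4 genes of each list per direction. Members named besides, including those within 2-fold, were chosen after their values were seen. The members and the 50 gene lists were chosen with earlier results of these data known. Promoters of 300 bases (250 before and 50 after the start) came from RefSeq GRCm38.p6. For the shares given, both strands of the full 300 bases were searched, so a counted match can lie after the start. The windows shown hold matches before the start only. A promoter was found for 5686 compared genes. Of 12 motifs, those not given in the report were, with their share of all promoters, TGATGNAAT (0.965%), TGANTCA (7.81%), TGACGTCA (1.79%), TCACNCCAC (1.24%), a longer sterol regulatory element (0.234%), ACGTGC (5.91%) and a CArG box (0.0639%). Work was done in Python 3.11.15 (pandas 2.3.3, numpy 2.4.6, matplotlib 3.10.9), and the counting was tested on simulated data. Alternatives were other pseudocounts, minimums and scalings, summed rows and crossed footprint labels. Results for a few genes are not reported here.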

Additional observations from a re-analysis of the deposited data

Results flagged for a closer look

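Only the genes picked by the naming rules were searched here, not all genes compared, and the share over all genes was not counted. In 4 of them the cKO footprint difference was at least 2-fold one way and at least 2-fold the other way under both iBMDM guides. The difference between the comparisons was not tested, each rests on 1 library per group, and the 2 guides share the WT library. Hspa1b, an inducible HSP70, was at -1.37 in cKO (9.82 TPM in ff, 3.18 TPM in cKO) against 3.21 under sgWdr4-1 and 1.33 under sgWdr4-2. Kpna2, an importin with a near-identical copy, was at -2.33 against 2.42 and 1.33. Rev1, a translesion polymerase, was at -2.12 (24.4 and 4.87 TPM) against 1.49 and 1.67. Sucla2 was at -2.28 (77.7 and 15.2 TPM) against 2.17 and 1.19.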

How the results depend on the processing

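No paired analysis was possible because each group has 1 library, so no library could be left out. A pseudocount of 5 TPM gave 48 genes higher and 7 lower in input, 107 and 258 in footprints and 182 and 728 for translation efficiency. All 48 had footprints that were not higher, and 240 genes lower and 107 higher in footprints had input within 2-fold. With a minimum of 1 TPM the counts were 204 and 22 in input, 325 and 983 in footprints and 1853 lower for translation efficiency. Of the 204, 196 had footprints not higher, and 902 lower and 311 higher footprint genes had input within 2-fold. With a minimum of 20 TPM they were 35 and 6, 60 and 170, and 125 and 399, then 35, 154 and 59. With no filter they were 270.0 and 32, 419 and 1156, and 503 and 2180, then 259, 1068 and 402. Fewer or more low genes enter by construction.

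Rescaled to the same median, footprints gave 359 and 334, translation efficiency 593 and 653, and 308 lower and 349 higher footprint genes had input within 2-fold. With histone, ribosomal protein and mitochondrially encoded genes left out of the total, 7664 genes passed the minimum, 307 were higher in footprints, 479 for translation efficiency, and 296 higher footprint genes had input within 2-fold. Over the 7007 of these in the main comparison, added after seeing the data, 435 were higher for translation efficiency.

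Crossing the footprint labels, which turns footprint signs by construction, gave 579 higher and 194 lower in footprints and 290 lower for translation efficiency. Of the genes higher in input 63 then had footprints not higher, and 186 lower and 540 higher footprint genes had input within 2-fold. Median translation efficiency became 0.13 for immediate-early genes, 0.055 for MAPK regulators, 0.15 for YAP-responsive genes, 0.36 for collagens and 0.13 for integrins. Single genes became 0.59 (Cdkn1a), -2.81 (Ctxn1), -4.54 (Dus2), 0.80 (F3), -1.48 (Ipmk), 1.90 (Nppb), -0.59 (Nsdhl), -1.36 (Prrx2), 6.60 (Rnaset2b), 7.61 (Sap18b), -1.35 (Serf1), -0.082 (Wdr4) and -2.16 (Zdhhc3). Choosing genes by input or by footprints alone, added after seeing the data, left the counts within 1.5 times. Of single-gene differences, 38 moved by more than the spread across genes with a pseudocount of 5 TPM, 6 with 0.1 TPM and 1 with rows summed, and 3 list medians did so with a minimum of 20 TPM and 1 with no filter.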

Other observations

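Haemoglobin genes were present in footprints and nearly absent from input. Hba-a1 was at 172 TPM in ff and 94.8 TPM in cKO footprints, with 0.372 TPM in ff input and 0 in cKO input. Hbb-bs was at 171 and 49.1 TPM in footprints, with 1.37 TPM in ff input and 0 in cKO input. Alas2 and Pf4, which also mark erythroid cells or platelets, did not exceed 0.548 TPM in any of the 4 libraries. Ppbp, a further marker of these cells, was at 0.481 TPM in ff input and 1.196 TPM in cKO input. Its footprints were at 2.073 TPM in ff and 0.883 TPM in cKO.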
